A study of Mus musculus with 7 samples.

Results

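The collagen genes of the mouse were examined for binding of HDAC1, a histone deacetylase, in E11.5 limb buds. Members were the protein-coding genes of the GENCODE M21 annotation whose symbol has the form of a collagen chain (Col, a type number, a, a chain number), without Col2a1, which was not analysed here. There were 43 such genes among 21938 protein-coding genes. ChIP-seq, which sequences the DNA pulled down by an antibody from fixed chromatin, was done with an HDAC1 antibody in 4 samples, beside 3 input samples of sheared chromatin that saw no antibody. Every sample was a pool of Swiss Webster forelimb and hindlimb buds with 40 to 44 somites, drawn from 3 litters, and the labels name no transgene, mutation or treatment.

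The authors deposited 1 ranked list for all 4 ChIP samples, with 15347 peaks on the mm10 build. The list holds a chromosome, a start and an end for each peak and no read number, so the depth behind a peak is unknown and the spread between the ChIP samples cannot be given. The labelled tissue could not be checked against marker genes, since coordinates carry no expression level. A gene was assigned every peak that covered at least 1 bp of its body or of the 5 kb on either side. Intervals in brackets are 95% Wilson intervals over genes or peaks, which are not biological replicates, and they cover counting error only. No difference between groups of genes was tested.

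Collagens are secreted proteins of 3 chains wound into a triple helix. Fibrillar collagens assemble into the banded fibrils of skin, tendon, bone and cartilage, type IV collagens form the sheet-like network of basement membranes, and the remaining types decorate fibrils, build beaded or hexagonal networks or span the cell membrane. HDAC1 removes acetyl groups from histones as the catalytic subunit of corepressor complexes and is also found at the promoters of active genes. In the limb bud the collagen genes mark several compartments, from the condensing mesenchyme to the basement membrane beneath the surface epithelium.

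Of the 43 collagen genes, 19 had an HDAC1 peak (44.2%, interval 30.4 to 58.9%) and 24 had none. The share over all protein-coding genes was 50.5%, within the interval of the collagens. A promoter peak, defined as a peak touching the stretch from 2 kb before to 1 kb after a protein-coding transcription start, was present at 13 collagen genes (30.2%, interval 18.6 to 45.1%) against 43.9% of all protein-coding genes. An intronic peak, inside the gene body but outside the promoters and exons, was present at 6 collagen genes (14.0%, interval 6.56 to 27.3%) against 6.48% of all genes. The interval for intronic peaks began just above the share of all genes. Collagen genes are long, with a median of 114 kb against 17.4 kb for all genes. Among genes of at least 100 kb, 15 of 26 collagen genes (57.7%, interval 38.9 to 74.5%) and 71.7% of all genes had a peak. In the same length range an intronic peak was found at 4 of 26 collagen genes (15.4%, interval 6.15 to 33.5%) and at 26.8% of all genes. Under 100 kb it was found at 2 of 17 collagen genes (11.8%, interval 3.29 to 34.3%) and at 3.88% of all genes. The collagen share of intronic peaks thus lay below that of all genes in the longer class and above it in the shorter, and the share of all genes was within the interval of the collagens in both.

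The 19 genes shared 25 distinct peaks, which covered 16.8 kb in all. Col4a1 and Col4a2 had the same 2 peaks. A single peak was assigned to 13 genes, 2 peaks to 4 genes and 3 peaks to Col25a1 and Col26a1. Of the 25 peaks, 14 lay at a promoter, 9 in an intron, 2 in a flank and 0 over an exon outside a promoter. Of the 13634 peaks at all protein-coding genes, 10757 lay at a promoter, 1882 in an intron, 378 in a flank and 617 over an exon. At these 25 peaks the part at a promoter was thus smaller, and the part in introns larger. Collagen genes were longer (median 114 kb against 17.4 kb), and the split was not compared within a length class. By length class, given above, the collagen share of genes with an intronic peak was lower in the longer class and higher in the shorter. The map of peaks along the genes shows that most marks stood at the start, while the long bodies were largely empty.

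**Figure D1:**
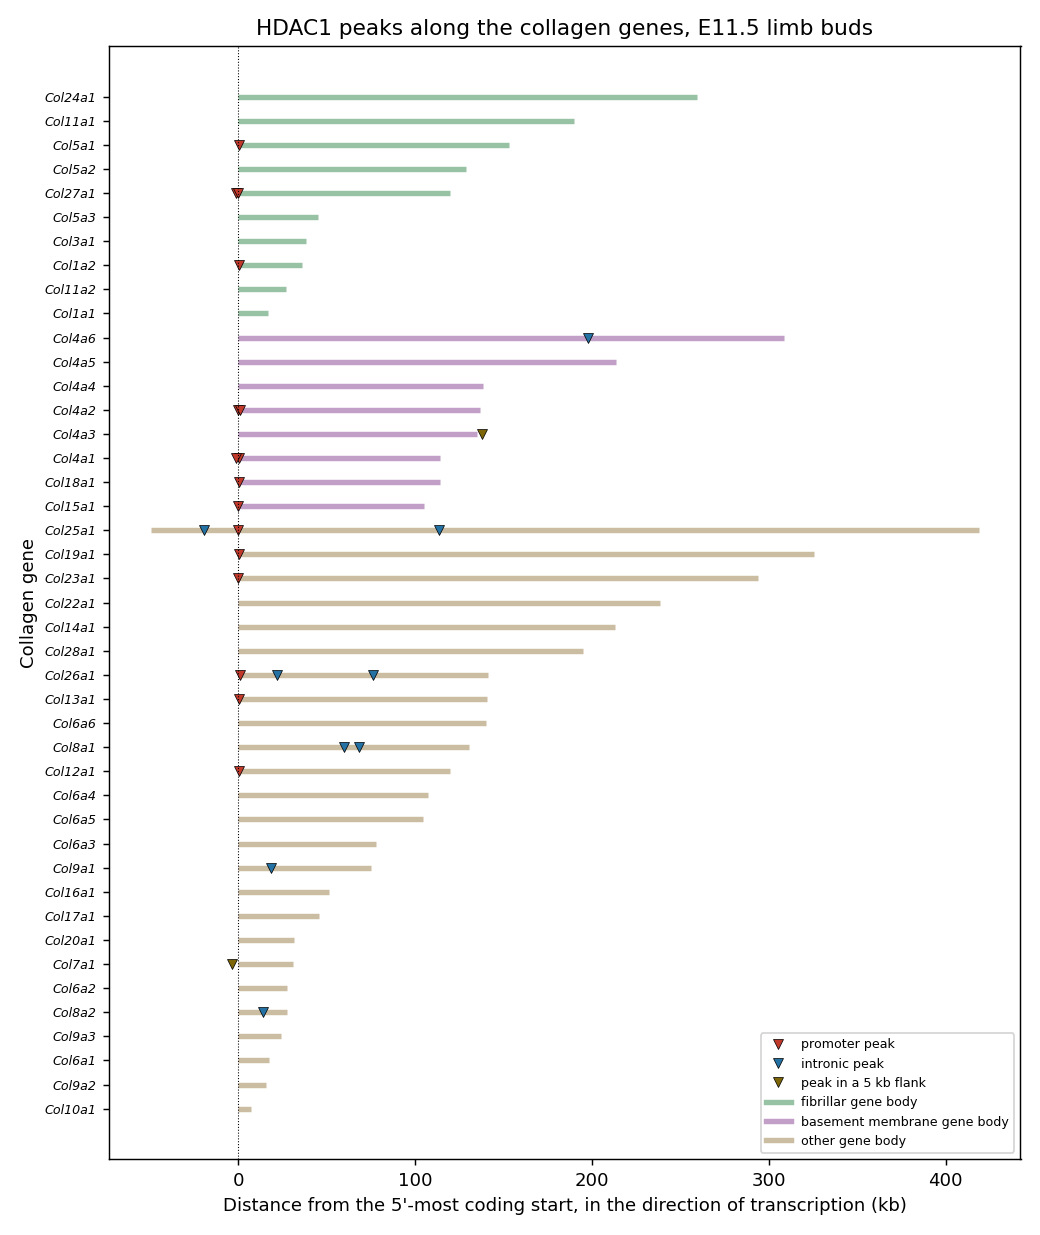
Each row is a collagen gene, drawn as a line from its first to its last annotated base against the distance from its most upstream coding start (kb, in the direction of transcription), with triangles at the midpoints of the HDAC1 peaks. Of the 43 genes, 13 carry a promoter peak at or near 0 kb, 6 carry an intronic peak, and 24 carry no mark. Col25a1 begins left of 0 because a noncoding transcript extends its annotated body upstream.

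The starts of the collagen genes differed widely in CpG content, the frequency of the dinucleotide that is concentrated in CpG islands, and the promoter peaks followed it. A start was called CpG-rich when the 500 bp on either side of the most upstream coding start had an observed-to-expected CpG ratio of at least 0.6 and a GC content of at least 50%. By this criterion 11 of 43 collagen genes were CpG-rich (25.6%, interval 14.9 to 40.2%), against 46.0% of all protein-coding genes. A promoter peak was present at 10 of the 11 CpG-rich collagen genes (90.9%, interval 62.3 to 98.4%) and at 3 of the other 32 (9.38%, interval 3.24 to 24.2%). These intervals did not overlap. The 10 genes include Col4a1 and Col4a2, which had the same peaks. Among all protein-coding genes the corresponding shares were 80.4% and 13.2%, both within the collagens' intervals. When the shares of all genes in each CpG class were summed over the 43 collagen genes, the sum was 13.1 genes with a promoter peak, beside the 13 found. Summed by length class instead (under 100 kb or not), it was 23.3, and by both together 15.4. For a peak anywhere in the window, all 11 CpG-rich collagen genes had 1 (100%, interval 74.1 to 100%, against 83.7% of all genes), and 8 of the other 32 did (25%, interval 13.3 to 42.1%, against 22.1%). Thus none of the 24 collagen genes without a peak had a CpG-rich start, and their CpG ratios ran from 0.08 to 0.53.

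The exceptions were few. Col8a2, which encodes a short-chain network collagen, was CpG-rich with a ratio of 0.67 and a GC content of 64.5% and had an intronic peak but no promoter peak. Promoter peaks without a CpG-rich start were found at Col1a2 (ratio 0.36), Col18a1 (0.50) and Col19a1 (0.72). Col19a1, a fibril-associated collagen, missed the criterion by its GC content of 49.3% alone, and its peak, which began downstream of the start, had a GC content of 66.2% and a ratio of 0.92. Nearest to the threshold were Col26a1 at 0.60 on the CpG-rich side and Col14a1, without a peak, at 0.53 on the other.

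**Figure D2:**
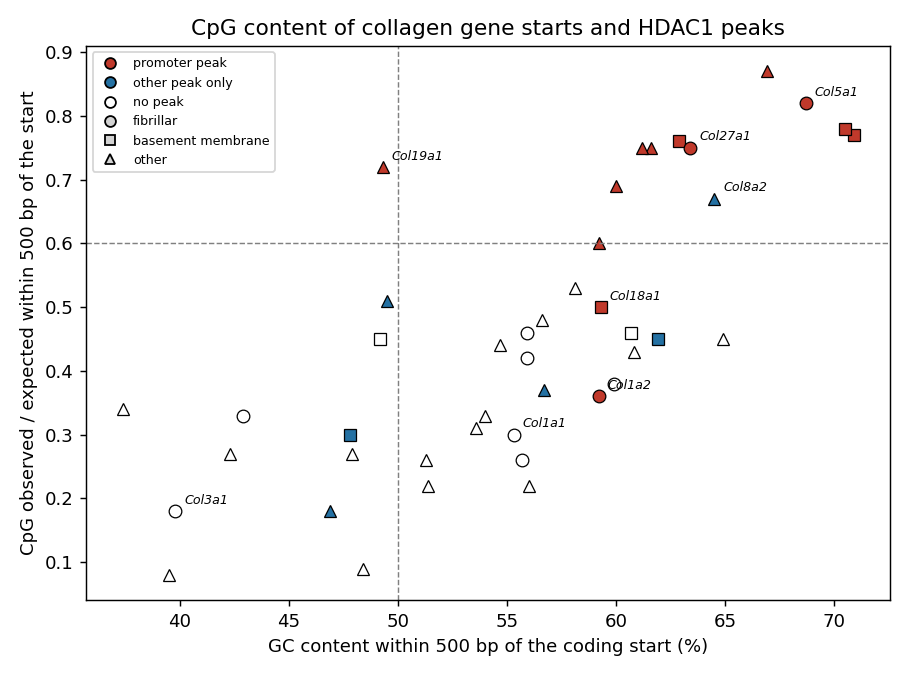
GC content (%, horizontal) and observed-to-expected CpG ratio (vertical) within 500 bp of the most upstream coding start of the 43 collagen genes, with the criterion as dashed lines, symbols by class and fill by peak status. Of the 11 genes in the upper right field, 10 have a promoter peak, and below a ratio of 0.6 the only promoter peaks are those of Col18a1 and Col1a2.

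By class, 3 of 10 fibrillar genes had a peak (30.0%, interval 10.8 to 60.3%), 6 of 8 basement membrane genes (75%, interval 40.9 to 92.9%) and 10 of 25 other collagen genes (40.0%, interval 23.4 to 59.3%). The share of fibrillar minus that of basement membrane genes was -45 percentage points, with a Newcombe interval of the difference from -71.2 to 0.6. The share of fibrillar minus that of the other collagen genes was -10 percentage points, with an interval from -37.2 to 24.6. Both intervals include 0, so neither shows a difference between classes, and neither difference was tested. The intervals take genes as independent, which Col4a1 and Col4a2, with the same peaks, were not. The share of all protein-coding genes, 50.5%, was within the interval of each class. The classes also differed in gene length. All 8 basement membrane genes were at least 100 kb long, against 5 of 10 fibrillar and 13 of 25 other genes. Of these long genes, 6 basement membrane, 2 fibrillar and 7 other genes had a peak. Among all protein-coding genes of that length the share was 71.7%. Within the first 7673 positions of the list, 2 of 10 fibrillar and 3 of 8 basement membrane genes had a peak, a difference of -17.5 percentage points. For promoter peaks the counts were 3 of 10 (30.0%), 4 of 8 (50%, interval 21.5 to 78.5%) and 6 of 25 (24.0%). The number of CpG-rich starts was 2 of 10 fibrillar, 3 of 8 basement membrane and 6 of 25 other genes. Within the CpG-rich starts, a promoter peak was found at 2 of 2, 3 of 3 and 5 of 6 genes, and within the rest at 1 of 8, 1 of 5 and 1 of 19. Col4a1 and Col4a2, whose starts lie 21 bp apart, had the same peaks and count separately among the basement membrane genes. In the plot of shares by class the intervals of the 3 classes overlap for each kind of peak.

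**Figure D3:**
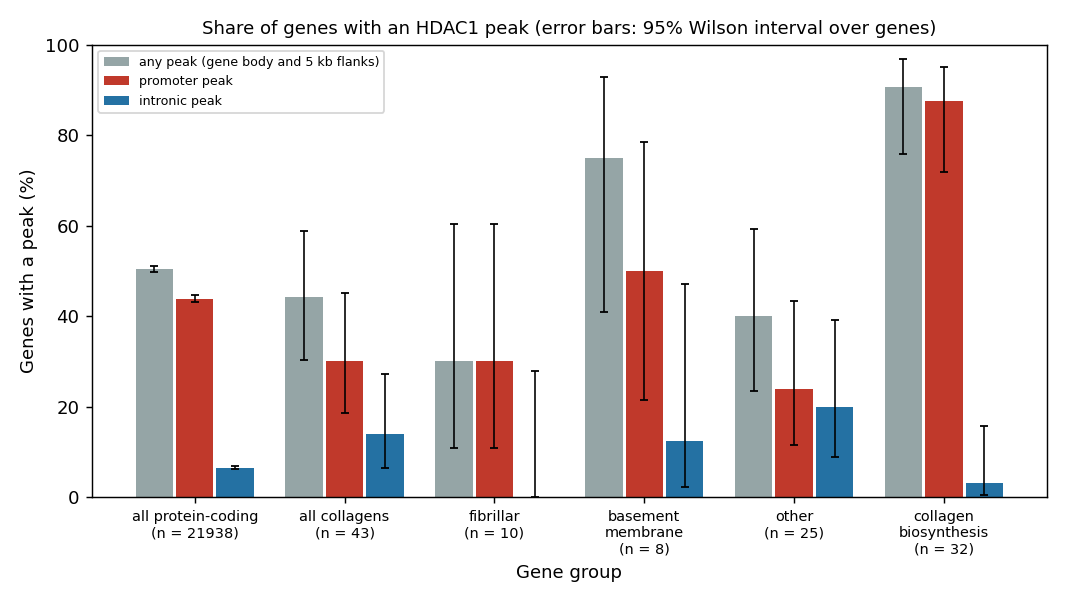
Share of genes (%) with any HDAC1 peak (grey), a promoter peak (red) and an intronic peak (blue) among all protein-coding genes, all 43 collagen genes, the 3 collagen classes and 32 collagen biosynthesis genes, with 95% Wilson intervals over genes as error bars. The fibrillar bars stand at 30.0% for any and for promoter peaks and at 0 for intronic peaks, while the biosynthesis genes stand at 87.5% for promoter peaks.

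The fibrillar collagens build the cross-striated fibrils, with types I and III in most connective tissue, type V at the fibril core and type XI in cartilage. All of the peaks at these 10 genes were promoter peaks. An intronic peak was present at 0 of 10, which allows a share of up to 27.8% by the Wilson interval. The share of all protein-coding genes with an intronic peak, 6.48%, was within that interval. Col27a1, whose product is laid down in developing cartilage, had a pair of promoter peaks. The first held rank 1543 of 15347 and covered chr4:63214000-63214899 (900 bp), ending 536 bp before the coding start. The second held rank 5360 and covered that start (chr4:63215100-63216099, 1000 bp). Col5a1, which encodes the main chain of type V, had a peak over its start with rank 4768 (chr2:27886250-27887199, 950 bp). Col1a2, which encodes a chain of type I collagen, had a peak of 350 bp with rank 10013 (chr6:4505700-4506049), starting 207 bp downstream of the start. It was the shortest of the 14 promoter peaks at collagen genes, and 76.0% of all coding promoter peaks were at least as long.

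The remaining 7 fibrillar genes had no peak. Col1a1 encodes the partner chain of Col1a2 in type I collagen, and its nearest peak lay 36.5 kb downstream, at the promoter of Ppp1r9b. Col3a1, the only chain of type III, and Col5a2, the partner of Col5a1, lie 24615 bp apart on chromosome 1 and were both empty. The nearest peak to the pair, at the promoter of Wdr75, was 292 kb from Col5a2 and 446 kb from Col3a1, and no peak fell within a stretch of 1243 kb around them. Col11a1, a main chain of type XI, was 400 kb from the nearest peak. Col11a2, its partner, was 6.84 kb from a peak of rank 2655 at the divergent starts of Rxrb and Slc39a7, just outside the 5 kb flank. Col5a3 was 42.1 kb from a peak. Col24a1, a minor fibrillar chain of 259.5 kb, was 24.1 kb from a peak of rank 294 at the promoter of Znhit6, which ranks above every peak assigned to a collagen gene.

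The sequences before the starts show the contrast in CpG content among some of the fibrillar genes. CpG content did not fully separate occupied from empty fibrillar starts. Col1a2, not shown, had a promoter peak at a ratio of 0.36. The ratios of Col11a1 (0.46), Col5a3 (0.42) and Col11a2 (0.38), all without a peak, were higher. The 200 bases upstream of the most upstream coding start are given for 2 genes without a peak (Col1a1, chr11:94936024-94936223, and Col3a1, chr1:45311338-45311537) and 2 with a promoter peak (Col5a1, chr2:27886225-27886424, and Col27a1, chr4:63215235-63215434). All are on the plus strand of GRCm38 (RefSeq genome sequence, the assembly of mm10), and capitals mark each CpG.
Col1a1, no peak: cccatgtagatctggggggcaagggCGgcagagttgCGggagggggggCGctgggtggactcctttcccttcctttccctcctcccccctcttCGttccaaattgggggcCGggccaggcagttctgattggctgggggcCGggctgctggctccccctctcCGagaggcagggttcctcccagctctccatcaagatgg
Col3a1, no peak: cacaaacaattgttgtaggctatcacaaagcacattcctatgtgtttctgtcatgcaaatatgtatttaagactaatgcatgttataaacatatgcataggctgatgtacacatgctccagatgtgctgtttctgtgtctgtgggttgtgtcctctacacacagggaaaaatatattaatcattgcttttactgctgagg
Col5a1, promoter peak: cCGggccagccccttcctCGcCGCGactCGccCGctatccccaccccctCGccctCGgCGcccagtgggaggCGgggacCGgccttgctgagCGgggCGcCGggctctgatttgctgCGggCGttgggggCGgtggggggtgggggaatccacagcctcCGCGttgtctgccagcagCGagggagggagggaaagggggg
Col27a1, promoter peak: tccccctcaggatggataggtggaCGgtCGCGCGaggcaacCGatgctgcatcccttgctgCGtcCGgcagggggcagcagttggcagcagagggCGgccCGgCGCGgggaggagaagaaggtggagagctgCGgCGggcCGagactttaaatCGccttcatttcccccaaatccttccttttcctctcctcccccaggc
These stretches held 7 CpG in Col1a1, 0 in Col3a1, 20 in Col5a1 and 15 in Col27a1. The GC content was 66.5% in Col1a1 and 65.0% in Col27a1, so this pair was alike in GC and differed in CpG number. The Col1a1 stretch held 2 matches to the CCAAT box, and the Col3a1 stretch held 1 match to TATAAA.

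The basement membrane collagens comprise the 6 type IV chains, encoded as 3 head-to-head gene pairs, and Col15a1 and Col18a1, whose products carry glycosaminoglycan chains and link basement membrane to the matrix beneath. The 3 type IV pairs differed in HDAC1 occupancy at the shared start region. Col4a1 and Col4a2 encode the chains found in nearly all basement membranes, and their starts lie 21 bp apart. A peak of 2000 bp with rank 1451 covered both (chr8:11311450-11313449), and a second of 500 bp with rank 6889 lay 795 bp downstream of the Col4a2 start (chr8:11313600-11314099). The first was the longest peak at a collagen gene, and 4.04% of all coding promoter peaks were at least as long. The CpG ratios of the pair were 0.77 and 0.78.

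Col4a3 and Col4a4, whose chains are restricted to a few specialized basement membranes such as that of the kidney glomerulus, have starts 127 bp apart with CpG ratios of 0.45 and 0.46, and no peak touched their promoters. The peak assigned to Col4a3 lay 2.74 kb beyond its last base (rank 11361, chr1:82724800-82725049, 250 bp) and fell at the promoter of Mff, a mitochondrial fission gene. The next gene over, Col4a4, was 138 kb from any peak. Col4a5 and Col4a6 have starts 1309 bp apart on the X chromosome, with ratios of 0.45 and 0.30, and again had no promoter peak. Col4a6 held an intronic peak 197 kb downstream of its start (rank 11387, 300 bp), which was also the nearest peak to Col4a5 at 199 kb. Without the Mff peak the class had 5 of 8 genes with a peak.

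Both other genes of the class had a promoter peak at the most upstream of 3 coding starts only. At Col15a1 the peak of 1400 bp had rank 8861 (chr4:47207650-47209049), and the starts 79.9 kb and 95.6 kb downstream, with CpG ratios of 0.12 and 0.10, had none. At Col18a1 the peak of 700 bp had rank 4558 (chr10:77165850-77166549), and the starts 52.6 kb and 52.8 kb downstream, with ratios of 0.26 and 0.33, had none. In both genes the occupied start was the one with the highest CpG ratio, 0.76 in Col15a1 and 0.50 in Col18a1.

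Among the other 25 collagens the transmembrane group had a promoter peak at 3 of its 4 genes (interval 30.1 to 95.4%). The share of all protein-coding genes, 43.9%, was within that interval. Col13a1, Col23a1 and Col25a1, the 3 genes with the peak, had CpG-rich starts, and Col17a1 did not. Of all protein-coding genes with a CpG-rich start, 80.4% had a promoter peak. Col13a1, a muscle and cell adhesion collagen, had a peak of 1600 bp with rank 3108 (chr10:61977850-61979449). Col25a1, known from motor neurons and muscle, had a peak of 950 bp with rank 4971 (chr3:130180550-130181499), and Col23a1 had a peak of 650 bp with rank 10557 (chr11:51289750-51290399). Col17a1, an epithelial hemidesmosome collagen, had no peak within 38.9 kb. Of the 9 fibril-associated collagens, Col12a1 (rank 6801, chr9:79718000-79718799, 800 bp) and Col19a1 (rank 1834, chr1:24586450-24587049, 600 bp) had a promoter peak, Col9a1 had an intronic peak, and the other 6 had none.

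The peak with the best rank of any collagen gene was at the start of Col26a1, a small collagen with a noncollagenous EMI domain. It had rank 1174 and a length of 1550 bp (chr5:136881600-136883149). The gene also had 2 intronic peaks of 300 and 250 bp, with rank 6036 at 21.7 kb from the start (chr5:136861200-136861499) and rank 9472 at 76.2 kb (chr5:136806700-136806949). Col25a1 had 3 peaks as well. An intronic peak of 200 bp lay 113 kb into the gene (rank 8400, chr3:130294250-130294449), and another of 200 bp lay 19.1 kb upstream of the coding start, within the intron of a noncoding transcript (rank 15201, chr3:130161550-130161749). In each of these 2 genes the promoter peak was longer than the intronic peaks and ranked above them.

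The type VI collagens, which form beaded microfibrils around cells, and the related Col28a1 had 0 of 7 genes with a peak. By the Wilson interval this allows up to 35.4%. The share was 50.5% over all protein-coding genes and 22.1% over those without a CpG-rich start. The CpG ratios of these 7 collagen genes ran from 0.08 at Col28a1 to 0.43 at Col6a2. The nearest peak to Col28a1 was 16.5 kb away, and those of the 6 type VI genes lay from 63.7 kb (Col6a2) to 210 kb (Col6a5) away. The short-chain genes Col8a1 and Col8a2 had intronic peaks only, and Col10a1, the marker of hypertrophic cartilage, had none within 92.2 kb. Col7a1, which encodes the anchoring fibrils below the epidermis, had a peak of 200 bp lying 3.59 kb upstream of its start (rank 10046, chr9:108949800-108949999), outside every coding promoter window.

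Promoter and intronic peaks did not overlap in length, and promoter peaks tended to stand earlier in the list. The 14 promoter peaks had a median length of 925 bp (range 350 to 2000) and the 9 intronic peaks 300 bp (range 200 to 300), so every promoter peak was longer than every intronic peak. Over all protein-coding genes the medians were 550 bp for 10757 promoter peaks and 300 bp for 1882 intronic peaks, with ranges from 100 to 35050 bp and from 100 to 2700 bp. The median rank was 4869.5 for the promoter peaks (range 1174 to 10557) and 8684 for the intronic peaks (range 6036 to 15201), against 6369 and 10333.5 for all genes. Within the first 7673 positions of the list stood 11 of 14 promoter peaks (78.6%, interval 52.4 to 92.4%) and 2 of 9 intronic peaks (22.2%, interval 6.32 to 54.7%). For all genes the shares were 58.7% and 27.6%, inside those intervals.

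**Figure D4:**
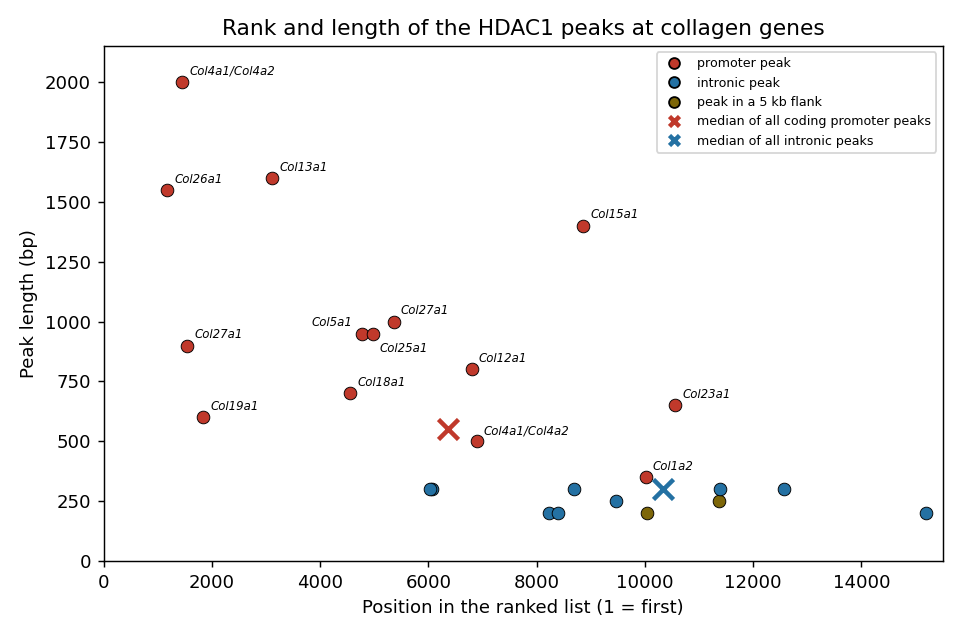
Position in the ranked list (horizontal, 1 is first) and length in bp (vertical) of the 25 HDAC1 peaks at collagen genes, colored by position, with gene names at the promoter peaks and crosses at the medians of all coding promoter and all intronic peaks. Every promoter peak is at least 350 bp long and every intronic or flank peak at most 300 bp.

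In sequence the 14 promoter peaks had a median GC content of 62.8% and a median CpG ratio of 0.74, close to the 65.4% and 0.82 of all coding promoter peaks. The intronic peaks of collagen genes had 46.0% and 0.21, beside 51.0% and 0.31 for all intronic peaks. Among the 9 intronic peaks Col8a2 stood apart with 70.0% GC and a ratio of 0.57 (rank 12579, chr4:126300900-126301199, 300 bp). Col8a1 had 2 intronic peaks of 300 bp each, 68.3 kb (rank 6073, chr16:57686150-57686449) and 59.6 kb (rank 8684, chr16:57694800-57695099) from its start, with GC contents of 45% and 43.0%. The Col9a1 peak of 200 bp (rank 8226, chr1:24196200-24196399) lay 1013 bp downstream of the second coding start of the gene, just past the promoter window, and 18.6 kb from the first. A window of 5 kb on both sides would count it, and the peak before Col7a1, as promoter peaks.

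The letters of 2 intronic peaks show how unlike they were. They are given on the plus strand of GRCm38 at the coordinates above, with capitals for each CpG.
Col8a1 intron, rank 6073: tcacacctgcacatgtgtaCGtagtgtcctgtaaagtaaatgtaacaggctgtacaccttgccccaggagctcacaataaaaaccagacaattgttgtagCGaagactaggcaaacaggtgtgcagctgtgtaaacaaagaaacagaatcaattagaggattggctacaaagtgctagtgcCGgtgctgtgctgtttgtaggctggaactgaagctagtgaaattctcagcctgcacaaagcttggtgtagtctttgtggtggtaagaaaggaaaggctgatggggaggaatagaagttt
Col8a2 intron, rank 12579: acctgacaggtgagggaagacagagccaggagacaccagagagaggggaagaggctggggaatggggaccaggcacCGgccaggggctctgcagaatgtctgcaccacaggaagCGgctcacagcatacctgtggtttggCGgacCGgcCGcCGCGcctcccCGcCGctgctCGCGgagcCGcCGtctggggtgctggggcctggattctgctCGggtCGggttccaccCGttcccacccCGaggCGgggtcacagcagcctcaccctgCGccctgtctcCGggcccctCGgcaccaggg
The Col8a1 peak held 3 CpG in 300 bases and the Col8a2 peak 21.

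Short motifs known from collagen promoters did not separate the occupied starts as CpG content did. From 250 bases before to 50 after the most upstream coding start, CCAAT (either strand) was found at 6 of 13 genes with a promoter peak and 11 of 30 without, against 38.8% of all promoters. GGGCGG (either strand) was found at 9 of 13 and 16 of 30, against 44.9%. TATAAA on the strand of the gene was found at 1 of 13, Col13a1, and at 4 of 30, Col1a1, Col3a1, Col10a1 and Col17a1, against 8.70%. GACCACCCA, the consensus of the GLI factors of Hedgehog signaling, was found at 0 of 43 collagen promoters in either direction, against 0.206% of all promoters. It was in 0 of the 14 promoter peaks, against 0.697% of all coding promoter peaks. In the 9 intronic peaks it was found 0 times, against 0.478% of all intronic peaks. At such low shares, counts of 0 among so few promoters and peaks say little about GLI sites. A match is a run of letters, not a shown binding site.

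The 24 collagen genes without a peak were not near misses in the main. Their distance to the nearest peak had a median of 68.9 kb and ran from 6.84 kb to 512 kb, beside a median of 82.6 kb for all protein-coding genes without a peak outside the Y chromosome. The nearest peak lay at a coding promoter of another gene in 22 of 24 cases. Coding promoters also held 10757 of the 15347 peaks of the whole list. The 24 cases were not all different peaks. The Lss peak was nearest to Col6a1 and Col6a2, the Wdr82 peak to Col6a4 and Col6a5, and the Wdr75 peak to Col3a1 and Col5a2. Col11a2 and Col9a3, the latter 7.84 kb from a peak at the Ogfr promoter, were the only ones within 10 kb. Col20a1 lay 18.8 kb from the nearest peak, Col9a2 22.1 kb, Col14a1 36.4 kb and Col16a1 62.4 kb. Col6a4 and Col6a3 lay 74.1 kb and 155 kb away, and Col6a1 and Col6a6 lay 177 kb and 192 kb away. Col22a1, a collagen of tissue junctions, was the farthest at 512 kb.

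The genes that make and process collagen chains differed from the chains themselves. Of 32 collagen biosynthesis genes, 29 had a peak (90.6%, interval 75.8 to 96.8%), against 50.5% of all protein-coding genes. A promoter peak was present at 28 (87.5%, interval 71.9 to 95%), against 43.9% of all protein-coding genes. The promoter interval of the biosynthesis genes did not overlap that of the 43 collagen genes. Starts were CpG-rich in 24 of the 32 biosynthesis genes, of which 22 had a promoter peak, beside 80.4% of all such genes. Of the 8 that were not CpG-rich, 6 had a promoter peak, beside 13.2% of all such genes. At Fkbp10 and Loxl3 it also touched the promoter of a neighboring gene. The neighbor of Fkbp10 is P3h4, also in the list, so their shared peak (rank 2417) counts for both genes. Occupied promoters included Plod2, a lysyl hydroxylase (rank 1422), Colgalt1, a collagen galactosyltransferase (1619), and Tll1, a procollagen C-proteinase (1663). They also included P4hb and P4ha1, the subunits of prolyl hydroxylase (2390 and 2803), Serpinh1, the collagen chaperone (5629), and Lox, a cross-linking lysyl oxidase (3812). These are early ranks. The promoter peak stood within the first 7673 positions at 20 of the 28 genes, beside 58.7% of all coding promoter peaks, counted by peak. Late ranks were found at P4ha3 (12666), Colgalt2 (13075), Tll2 (13144), P4ha2 (13711) and Loxl1 (15140). No promoter peak was found at Plod1, Loxl2, Loxl4 or Sparc, and only Plod1 of these had a peak elsewhere in its window (rank 9327). Counting only peaks that touched no other coding promoter, 23 of 32 remained.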

How the data were processed

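HDAC1 ChIP-seq was analysed from a single list of peak coordinates. The values that the authors deposited are coordinates (chromosome, start, end), not a count, score or signal. Peaks were called by the authors with CisGenome on the 4 ChIP samples at a false discovery rate below 0.05, and the submitters' processing notes name Bowtie2 2.2.5 and mm10. Weaker binding can fall below such a threshold at any depth, and the depth per sample is unknown from the list. Starts and ends were both counted as part of a peak, numbering bases from 1, and the order of the list was taken as the rank.

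Gene bodies came from the GENCODE M21 annotation, starts from its basic coding transcripts, and exons from all basic transcripts of a gene, noncoding ones included. The 87 protein-coding genes without a basic coding transcript had no promoter. Sequences came from the RefSeq GRCm38 genome. Overlap needed 1 bp. A peak at several positions was called promoter, then exon, intron and flank. CpG ratio was the CpG number times length over the product of C and G numbers. Classes were fibrillar (types I, III, V, XI, XXIV and XXVII), basement membrane (types IV, XV and XVIII) and other. Every member was named, and those described singly were all fibrillar and basement membrane genes, genes with a promoter peak in the first 7673 positions and the genes with most peaks, with some others chosen after their values were seen. The position and sequence of 1 intronic peak are not reported here. The members, classes, motifs and lists were chosen with earlier results of these data known.

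Alternatives changed the flank, the promoter window, the starts, the overlap, the merging of peaks, the part of the list and the CpG criterion. Overlap and distance calls were tested on simulated intervals. The tools were Python 3.11.15 with scipy 1.17.1 and numpy 2.4.6, and matplotlib 3.10.9 for the plots.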

Additional observations from a re-analysis of the deposited data

How the results depend on the processing

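Of 72 alternatives, 69 left the value within a set limit. The limit was 1.5 times for counts and the share of all genes, the interval for differences, and the interquartile range of the peaks for medians. Only the differences between classes have a direction, and 0 of their alternatives reversed it. The 3 that moved a count all kept only the first 7673 peaks, where 11 of 43 collagen genes had a peak in place of 19, 3 of 8 basement membrane genes in place of 6, and 6 of 25 other collagen genes in place of 10, while the share over all protein-coding genes was 35.0% in place of 50.5%. This alternative holds fewer peaks by construction. In it the share of fibrillar minus that of basement membrane genes was -17.5 percentage points, in place of -45. This was not counted as moved, because the interval of that difference was wide, from -71.2 to 0.6. Over the whole list, with type IV as the whole class, it was -36.7. Without flanks 17 collagen genes and 45.1% of all genes had a peak, and with flanks of 10 kb 21 and 53.8% did. Promoter peaks were found at 13 genes in 3 of the 5 settings, at 15 with a window of 5 kb on both sides and at 10 in the first part of the list. Under CpG criteria added after the data were seen, 11 of 12 CpG-rich and 2 of 31 other genes had a promoter peak without a GC minimum, and 9 of 10 and 4 of 33 with a ratio of 0.65 and a GC content of 55%.

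No paired analysis was possible because 1 pooled list holds the peaks of all ChIP samples. Leaving out a replicate was not run either, since the list gives no value per sample. No value rests on a test, and with 8 to 25 genes per class the intervals of the differences between classes were wide. A gene without a peak is not shown to be free of HDAC1.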
